A study of Mus musculus with 3 samples.

Results

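The 5 genes that encode the subunits of phosphodiesterase 6 (PDE6) were followed across cell classes and libraries of a single-cell RNA sequencing study of the mouse retina: Pde6a, Pde6b and Pde6g, whose products form the rod enzyme, and Pde6c and Pde6h, whose products form the cone enzyme. They were taken by name and not by their values, and all 5 were among the 18545 genes of the matrix. The study asked how a mixture of drugs acts on a retina that degenerates because of a mutation in Pde6b. Each of the 3 groups gave a single droplet library of papain-dissociated retina from dark-reared mice, all 8 weeks old. The WT library came from wildtype C57BL/6J mice of both sexes on base chow, the rd10-vehicle library from female Rd10 mice (C57BL/6J) on the same chow, and the rd10-TMB library from female Rd10 mice (C57BL/6J) whose chow carried tamsulosin, metoprolol and bromocriptine (TMB). The rd10 mutation is a germline point mutation of Pde6b, so every cell of both rd10 groups has it, and transcript counts do not show it. According to the labels each library pooled 1 retina from each of 4 mice, although the published text names smaller rd10 pools. Males were present in the WT pool alone, so the values against WT over all cells compare pools of unequal sex, and some values are also given with WT limited to cells of a female pattern.

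PDE6 is the effector enzyme of phototransduction. Light-activated opsin switches on transducin, a G protein, which lifts the inhibitory subunits off the catalytic core of PDE6, and the enzyme then hydrolyses cyclic GMP and lets the cyclic GMP-gated channels close. In rods the catalytic core pairs an alpha subunit from Pde6a with a beta subunit from Pde6b, and the inhibitory gamma subunit comes from Pde6g. In cones the core is made of alpha prime subunits from Pde6c alone, and the inhibitory subunit comes from Pde6h. Loss of the rod enzyme lets cyclic GMP build up and is a known cause of rod death.

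The 250 bases before the start of a rod gene and of a cone gene are shown because 4 of the 5 members, all but Pde6g, were high in rod-like or cone-like cells but not in both, and because Pde6b carries the mutation. Promoters of 2 of the 5 members were used from the RefSeq table (GRCm38.p6). The Pde6b stretch is chr5:108388123-108388372 and the Pde6h stretch is chr6:136954273-136954522, both on the plus strand, printed 5′ to 3′ and ending at the base before the RefSeq start. Capitals mark the letters TGCTGA, which form part of the site bound by NRL, the transcription factor that sets rod identity.
Pde6b: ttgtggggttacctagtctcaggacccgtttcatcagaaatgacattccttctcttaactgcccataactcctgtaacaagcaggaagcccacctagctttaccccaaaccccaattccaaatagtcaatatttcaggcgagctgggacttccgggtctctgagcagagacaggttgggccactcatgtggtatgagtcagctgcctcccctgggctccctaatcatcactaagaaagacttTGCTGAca
Pde6h: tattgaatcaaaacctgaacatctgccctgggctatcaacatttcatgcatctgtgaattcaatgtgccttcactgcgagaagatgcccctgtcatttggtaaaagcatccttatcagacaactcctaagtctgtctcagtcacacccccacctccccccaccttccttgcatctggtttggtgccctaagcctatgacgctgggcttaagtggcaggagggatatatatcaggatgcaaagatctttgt
On both strands, Pde6b held TGCTGA from 8 to 3 bases before its start, and Pde6h held no match. TGCTGA occurred in 16.1% of 32851 RefSeq promoters of this length. The letters TAATCC, the core of the site of CRX, a factor of rods and cones, were in neither stretch and in 6.25% of all promoters. These matches describe letters in a window and say nothing of binding.

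Each value below is a number of unique molecular identifiers (UMIs, counts of distinct captured transcript ends), summed over the cells of a class in a library and divided by all UMIs of that class, as UMIs per 1000000 (CPM), with an exact 95% interval in brackets. With 1 library per group the design gives no test, and the intervals cover counting error only, so they describe these libraries. Values set out as 3 numbers are in the order WT, rd10-vehicle and rd10-TMB. A gene was called higher or lower between 2 libraries when its ratio passed 1.5-fold and it had at least 20 UMIs over both. The libraries held 4478, 5952 and 4812 cells with median depths of 3509.5, 4811.5 and 4772.5 UMIs, and 25 cell barcodes occurred in more than 1 library. Clusters were those deposited, and names ending in -like were given here from marker genes. The clusters were made from these same cells, so a level across clusters is a description.

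On the GRCm38 (mm10) assembly with the GENCODE annotation, Pde6b spans 108388391 to 108432397 on chromosome 5, Pde6c 38132781 to 38183958 on chromosome 19, Pde6h 136923832 to 136968865 on chromosome 6 and Pde6a 61220315 to 61289924 on chromosome 18, all on the plus strand. Pde6g spans 120447605 to 120453500 on the minus strand of chromosome 11. Pde6h overlaps Arhgdib on the opposite strand. Arhgdib was counted at 91.9, 115 and 84.7 CPM in cone-like cells, against Pde6h levels of 13965 CPM or more, and strand handling in the counting is not given in the sources used here.

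In every library Pde6a and Pde6b had their highest level in rod-like cells, Pde6c and Pde6h had theirs in cone-like cells, and Pde6g was high in both. In rod-like cells Pde6a stood at 1948, 1885 and 2066 CPM. Among classes of at least 50 cells other than photoreceptors, its highest level was 116, 101 and 88.1 CPM, in ON cone bipolar-like cells of WT and in OFF cone bipolar-like cluster 7 of both rd10 libraries, so rod-like cells stood 16.9, 18.7 and 23.5 times above. For Pde6b the same factors were 19.1, 16.9 and 22.7. The cone genes were more sharply bounded. Pde6c in cone-like cells was 219, 63.3 and 84.4 times its highest level outside photoreceptors, and Pde6h 391, 160.4 and 136 times. The Pde6c factors are imprecise. Its highest level rested on 8 UMIs in cluster 7 of rd10-vehicle and on 7 UMIs in cluster 10 of rd10-TMB. The highest level was also taken over unequal numbers of classes, 10, 11 and 8.

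Pde6g, the gene of the rod inhibitory subunit, was not confined to rods. Its level in rod-like cells was 5059.8 (4956 to 5165), 4984 (4836 to 5136) and 5377 (5249.7 to 5506) CPM. In cone-like cells it was 2477 (2396 to 2559.7), 2485 (2425 to 2547) and 2343 (2279 to 2408) CPM. The order rod-like, then cone-like held in each library with intervals that did not meet. Among classes of at least 50 cells, next in each library came OFF cone bipolar-like cluster 7, second-order neurons that receive from cones, with 177 (142 to 217), 278 (231 to 331) and 272 (222 to 330.4) CPM. Smaller classes could lie higher, such as the 19 lens-like cells of rd10-TMB at 555 (419 to 721) CPM. In WT cluster 7 did not differ beyond its interval from ON cone bipolar-like cells at 160.3 (137 to 186) CPM. In both rd10 libraries cluster 7 lay clear of the next class of at least 50 cells, Müller glia-like cells at 117 (113 to 122) CPM in rd10-vehicle and OFF cone bipolar-like cluster 8 at 138 (110.2 to 169.8) CPM in rd10-TMB.

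**Figure D1:**
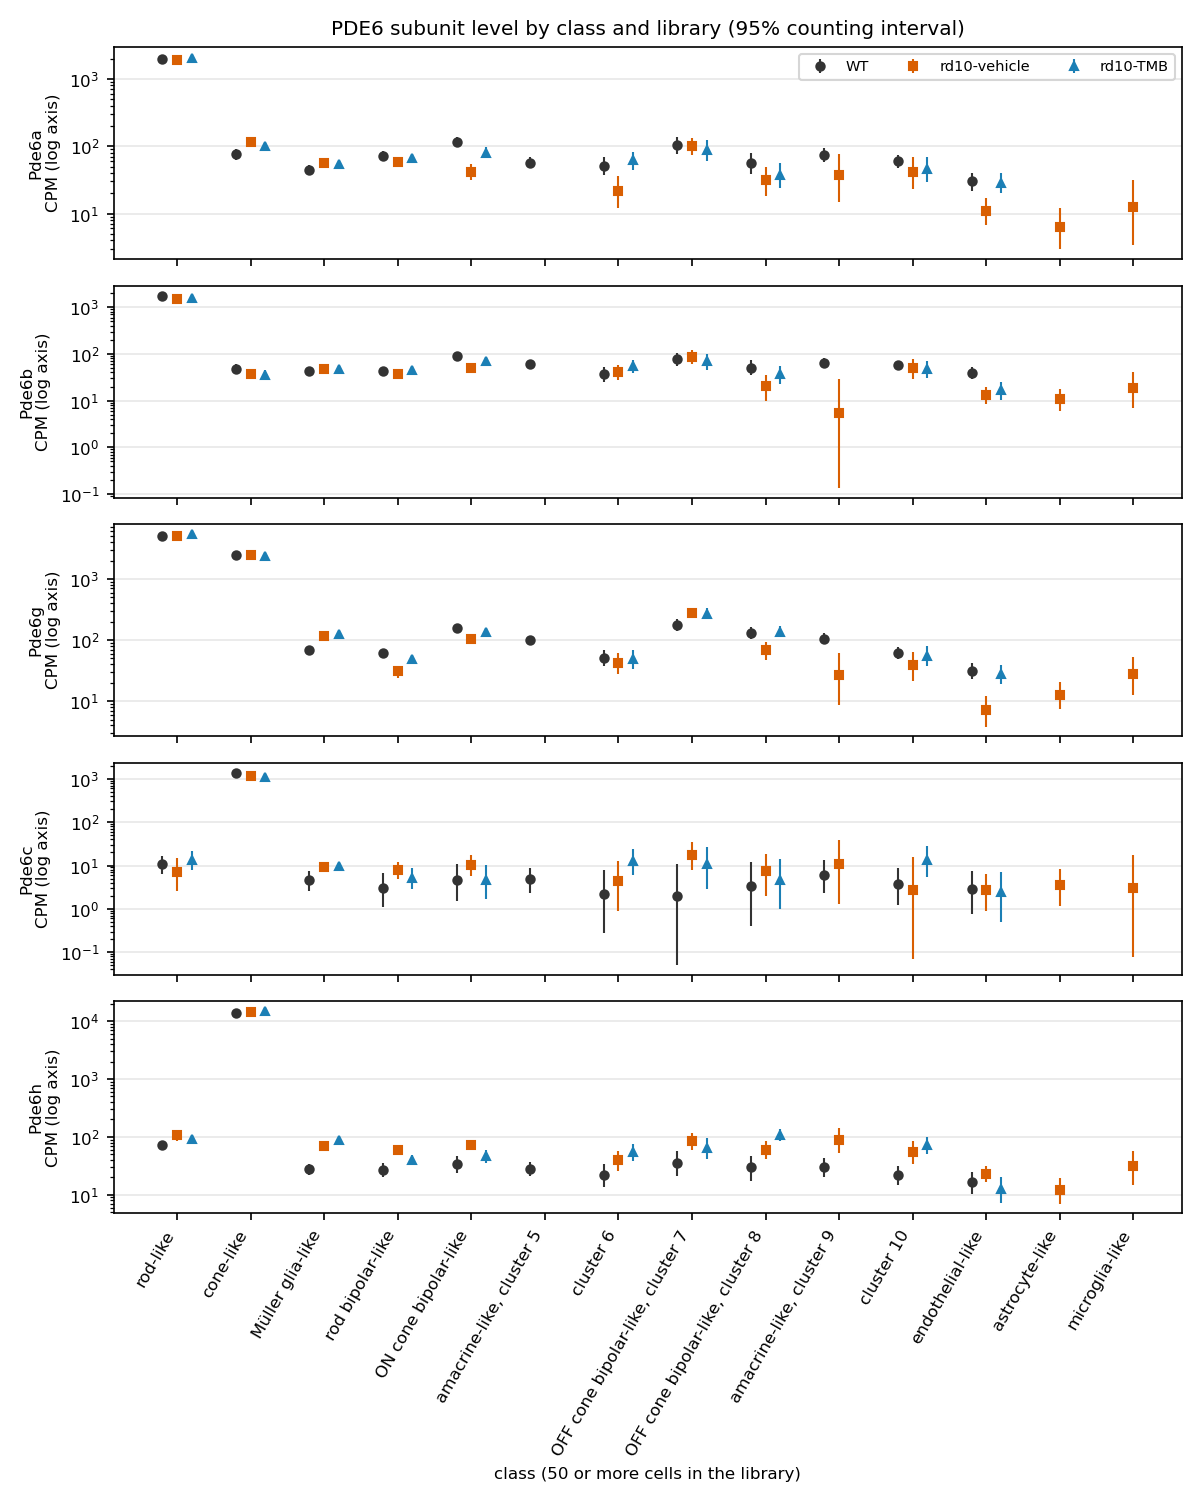
Level of each PDE6 gene in CPM on a log axis (vertical) in each class with at least 50 cells (horizontal), with 1 point per library and its 95% counting interval. Pde6a and Pde6b peak in rod-like cells, Pde6c and Pde6h in cone-like cells, and Pde6g stands at 4984 to 5377 CPM in rod-like and 2343 to 2485 CPM in cone-like cells.

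In rod-like cells the cone genes were low. Pde6c was at 10.6, 6.97 and 13.5 CPM there, from 19, 6 and 17 UMIs. Its intervals in rod-like cells overlapped those of Müller glia-like cells, at 4.52, 9.10 and 9.89 CPM, in all 3 libraries. Pde6h in rod-like cells was at 72.3 (60.4 to 85.8), 107 (86.2 to 131) and 91.8 (75.8 to 110.1) CPM, against 27.4 (22.1 to 33.7), 70.5 (67.1 to 74.1) and 87.6 (83.1 to 92.2) CPM in Müller glia-like cells. It lay above the Müller glia-like level in WT and rd10-vehicle, while in rd10-TMB the intervals overlapped.

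Rods made up less of the rd10 libraries, and the PDE6 transcripts of those libraries were counted in another mixture of cells. Rod-like cells numbered 1180, 556 and 746, or 26.4%, 9.34% and 15.5% of each library. Fewer rods in the retina and fewer rods captured cannot be told apart. Of all Pde6b UMIs in a library, rod-like cells gave 78.6%, 46.0% and 60.8%, and Müller glia-like cells 3.51%, 37.9% and 23.9%. Müller glia-like cells numbered 530, 2492 and 1748, and their Pde6b level was 42.2, 47.2 and 46.9 CPM. For Pde6g, rod-like cells gave 65.7%, 31.0% and 46.1% and cone-like cells 25.5%, 46.1% and 34.6%, so the larger of these shares was that of cone-like cells in rd10-vehicle and that of rod-like cells in the other 2 libraries. Cone-like cells gave 96.2%, 91.2% and 91.2% of the Pde6c UMIs and 97.4%, 94.3% and 94.2% of the Pde6h UMIs.

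**Figure D2:**
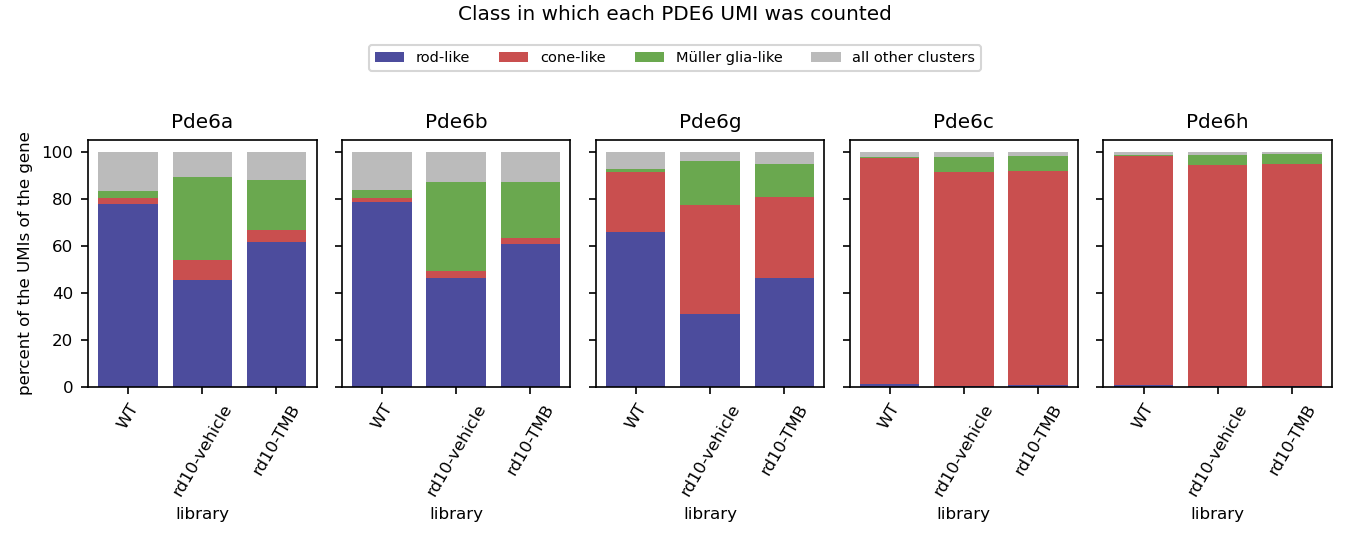
Percent of the UMIs of each PDE6 gene (vertical) counted in rod-like cells, cone-like cells, Müller glia-like cells and all other clusters, as stacked bars for each library (horizontal). Rod-like cells gave 78.6%, 46.0% and 60.8% of Pde6b UMIs in WT, rd10-vehicle and rd10-TMB.

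Within rod-like cells the rod subunits stood close to their WT levels. Pde6b, the mutated gene, was at 1746 (1685 to 1808), 1477 (1397 to 1560.2) and 1585 (1516 to 1656) CPM. Both rd10 values lay below the WT interval, and the intervals of the 2 rd10 libraries overlapped. Its log2 ratio to WT was -0.24 (-0.34 to -0.15) for rd10-vehicle and -0.14 (-0.22 to -0.06) for rd10-TMB, comparisons that share the WT library. Between the rd10 libraries the log2 ratio, rd10-TMB over rd10-vehicle, was 0.10 with an interval whose lower end was at 0.00. These are small steps, and none of Pde6a, Pde6b and Pde6g was called in rod-like cells in any comparison. Over all genes tested there, 12.2% were called lower and 8.29% higher in rd10-vehicle against WT, 11.5% and 6.42% in rd10-TMB against WT, and 7.74% and 6.08% in rd10-TMB against rd10-vehicle. Of the 5 members, Pde6c was the 1 called in rod-like cells, for rd10-TMB over rd10-vehicle on 17 against 6 UMIs, with a log2 ratio of 0.81 (-0.46 to 2.58) whose interval includes 0.

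Pde6a, the partner of Pde6b in the catalytic core, was at 1948 (1884 to 2013), 1885 (1794 to 1979) and 2066 (1988 to 2147) CPM. Its log2 ratios were -0.05 (-0.13 to 0.04) for rd10-vehicle and 0.09 (0.01 to 0.16) for rd10-TMB over WT, and 0.13 (0.04 to 0.22) for rd10-TMB over rd10-vehicle. Pde6g had -0.02 (-0.07 to 0.03), 0.09 (0.04 to 0.13) and 0.11 (0.05 to 0.16) for these comparisons. Over all rod-like cells, both genes were thus within their interval of WT in rd10-vehicle and slightly above both other libraries in rd10-TMB, and Pde6b was the one of the 3 below WT in both rd10 libraries. This did not hold for Pde6g in rod-like cells with at least 1000 genes (289, 123 and 205 cells). There its log2 ratios to WT were -0.30 in rd10-vehicle and -0.13 in rd10-TMB, both below WT, beside -0.25 and -0.08 for Pde6b and 0.03 and 0.13 for Pde6a.

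**Figure D3:**
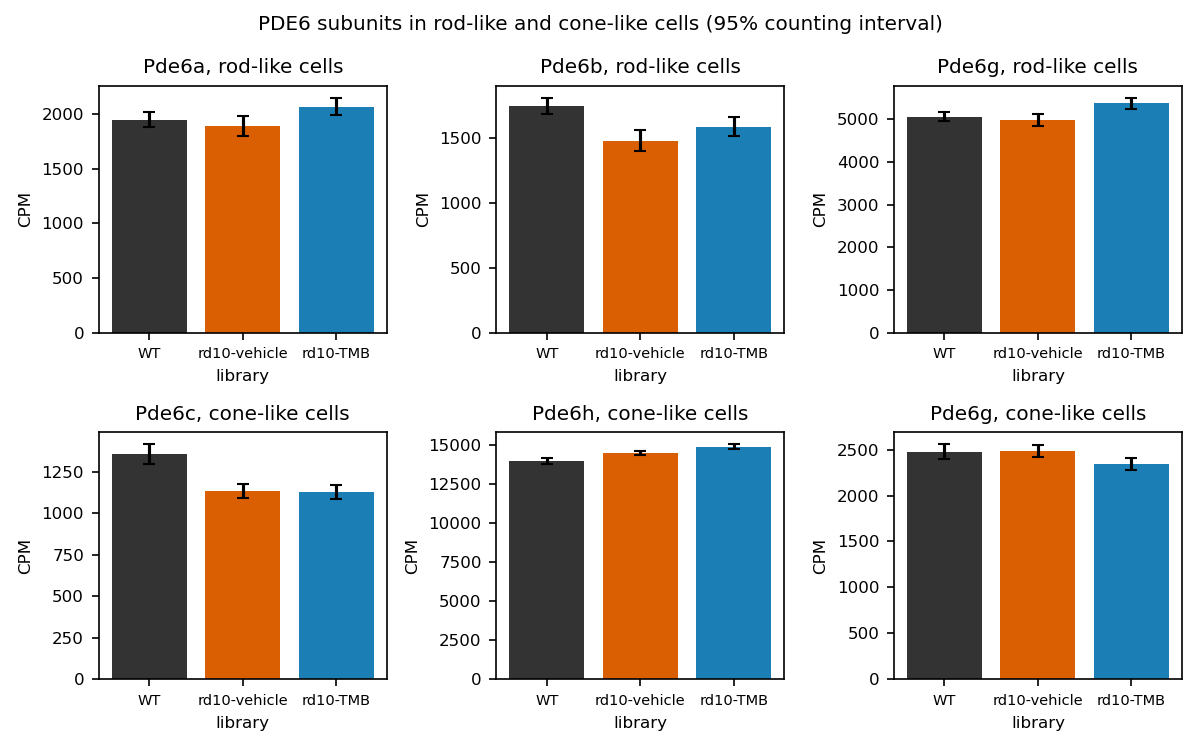
CPM (vertical, from 0) of Pde6a, Pde6b and Pde6g in rod-like cells and of Pde6c, Pde6h and Pde6g in cone-like cells, as 1 bar per library (horizontal) with 95% counting intervals as error bars. Pde6b in rod-like cells stands at 1746, 1477 and 1585 CPM and Pde6c in cone-like cells at 1354, 1133 and 1127 CPM in WT, rd10-vehicle and rd10-TMB.

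A ratio of 2 genes within the same cells does not depend on how a library was scaled. Of the Pde6a and Pde6b UMIs in rod-like cells, Pde6b made up 47.3% (46.1 to 48.5), 43.9% (42.1 to 45.8) and 43.4% (41.97 to 44.9). Both rd10 shares were below the WT interval, and their intervals overlapped. On the log2 scale the Pde6b to Pde6a ratio differed from WT by -0.19 (-0.32 to -0.07) in rd10-vehicle and -0.22 (-0.33 to -0.11) in rd10-TMB, and by -0.03 (-0.17 to 0.11) between the rd10 libraries. Over all rod-like cells the Pde6g to Pde6a ratio had differences from WT of 0.03 (-0.07 to 0.13) and 0.00 (-0.08 to 0.09), and Pde6g to Pde6b was higher by 0.22 (0.11 to 0.33) and 0.23 (0.13 to 0.32). The ratios that hold Pde6g depended on which cells were taken, in a comparison chosen after the data were seen. In cells with at least 1000 genes Pde6g to Pde6a differed from WT by -0.32 (-0.49 to -0.15) and -0.26 (-0.40 to -0.12), and Pde6g to Pde6b by -0.04 (-0.23 to 0.14) and -0.05 (-0.20 to 0.10). Where WT was limited to cells with a female pattern (Xist detected, Y-linked genes not), Pde6g to Pde6a was higher than in WT, by 0.21 (0.08 to 0.33) and 0.18 (0.07 to 0.29). The Pde6b to Pde6a ratio lay below WT in the cells with at least 1000 genes too, with differences of -0.28 (-0.50 to -0.06) and -0.21 (-0.39 to -0.03). For that ratio no value with WT limited to cells of a female pattern is given here.

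**Figure D4:**
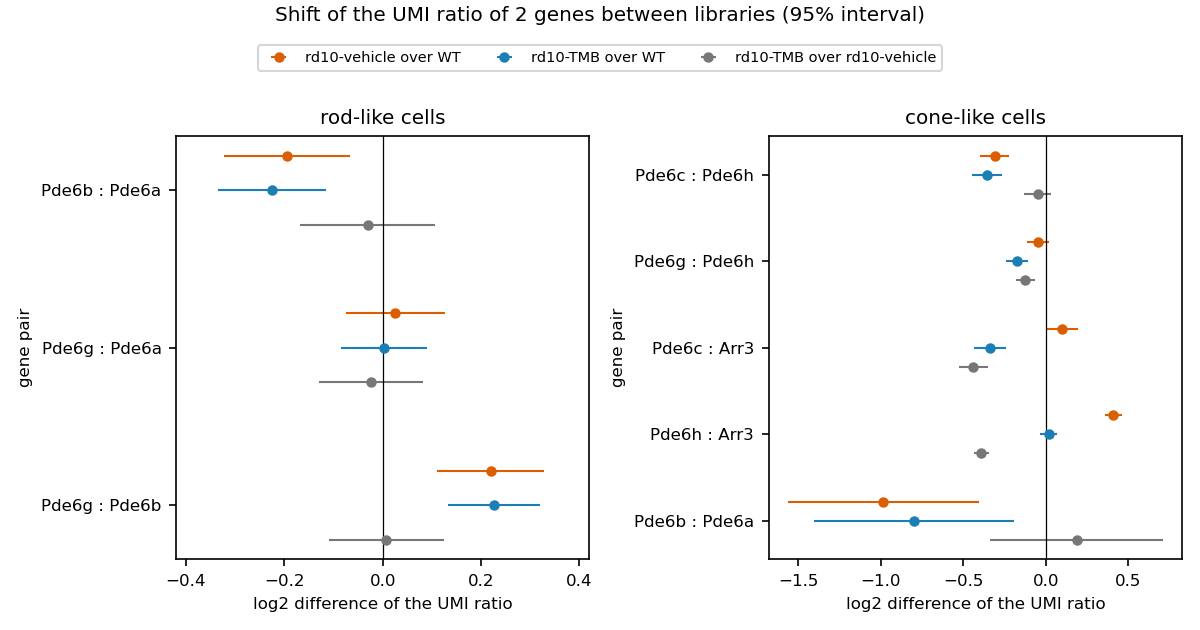
Log2 difference of the UMI ratio of 2 genes between libraries (horizontal) for each gene pair (vertical), in rod-like and in cone-like cells, with 95% intervals. In rod-like cells the Pde6b to Pde6a ratio lies below 0 in both rd10 libraries against WT, at -0.19 and -0.22, and the Pde6g to Pde6a ratio lies at 0.03 and 0.00.

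Rod-like cells were also split by their own depth, a split chosen after the data were seen. In cells of 1000 to below 2000 UMIs, Pde6b was at 1806 (1728 to 1888), 1518 (1417 to 1624) and 1669 (1574 to 1767) CPM. Both rd10 values lay below the WT interval there, and the interval of rd10-vehicle alone was clear of it. In cells of 2000 UMIs or more it was at 1614 (1505 to 1728), 1372 (1230.2 to 1526) and 1458 (1354 to 1569) CPM, and in cells below 1000 UMIs at 1749 (1568 to 1946), 1531 (1232 to 1879) and 1653 (1364 to 1986) CPM. WT had the highest value in each of the 3 depth ranges. Both rd10 values lay below the WT interval in the deepest cells, and that of rd10-vehicle did in the shallowest. In the shallowest and in the deepest cells the intervals of WT and the rd10 libraries overlapped. Pde6g behaved otherwise, since its level was higher in deeper cells in each library. From the shallowest to the deepest cells it was 2562 (2341 to 2798), 4826 (4697 to 4958) and 6512 (6293 to 6738) CPM in WT, 3331, 4976 and 5400.2 CPM in rd10-vehicle and 2886, 5018 and 6224 CPM in rd10-TMB. Pde6a in WT was at 2086 (1887 to 2300), 1984 (1902 to 2069) and 1816 (1701 to 1937) CPM over the same depth ranges. It had 2233, 2136 and 1945 CPM in rd10-TMB and 1632, 1897 and 1917 CPM in rd10-vehicle. In each library its intervals overlapped across the depth ranges.

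Transcripts of other cell classes were also counted in the rod-like cells, in amounts that differed between libraries. The 8 Müller glia markers, all detected, summed to 311, 859.8 and 725 CPM. The 8 amacrine markers, of which 8, 6 and 4 were detected, summed to 185, 34.9 and 35.6 CPM, and the 6 lens markers to 3.34, 75.5 and 102 CPM. Haemoglobin and other erythroid transcripts summed to 3.89, 1.16 and 182 CPM, while the 8 rod markers summed to 41009.5, 40113 and 42825 CPM. With the Müller glia-like level of the same library subtracted from both genes, the Pde6b share of the catalytic pair was 47.2%, 43.9% and 43.3%. The part of the other transcripts in the PDE6 differences was not tested.

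Most rod-like cells carried the whole set. To compare cells of unequal depth, each was thinned to 1000 UMIs, which left 954, 488 and 666 rod-like cells and dropped 226, 68 and 80. A Pde6b UMI was then found in 81.8% (79.2 to 84.2), 76.6% (72.6 to 80.3) and 77.2% (73.8 to 80.3) of rod-like cells, and without thinning in 88.7%, 83.99% and 88.3%. For Pde6a the thinned shares were 84.1%, 84.4% and 83.3% and the unthinned 92.1%, 89.7% and 92.1%. For Pde6g the thinned shares were 96.4%, 96.1% and 96.7% and the unthinned 93.98%, 96.0% and 96.4%. The Pde6b share was thus lower in both rd10 libraries with intervals that overlapped that of WT. Müller glia-like cells, a class not known to use PDE6, were taken as a comparison at the same thinned depth. They had 6.64%, 4.32% and 4.34% for Pde6b, 3.98%, 4.68% and 5.10% for Pde6a and 8.73%, 8.20% and 8.51% for Pde6g. The source of these counts was not tested. Median depth before thinning was 1423, 1406 and 1536 UMIs in rod-like and 6300, 8593.5 and 9454.5 UMIs in Müller glia-like cells. All 3 rod subunits were found in 66.9% (63.8 to 69.9), 62.9% (58.5 to 67.2) and 64.1% (60.3 to 67.8) of the thinned rod-like cells, and none of the 3 in 3, 2 and 1 cells.

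In each library the share of thinned rod-like cells with a Pde6a UMI was higher among cells with a Pde6b UMI than among those without. In WT a Pde6a UMI was found in 84.4% (81.6 to 86.8) of rod-like cells with a Pde6b UMI and in 82.8% (76.3 to 88.1) of those without. In rd10-vehicle the shares were 85.3% (81.3 to 88.7) and 81.6% (73.2 to 88.2). In rd10-TMB they were 85.6% (82.27 to 88.5) and 75.7% (68.0 to 82.25). Those intervals narrowly failed to meet in the random thinning used, whereas in the other 2 libraries they overlapped. The shares without a Pde6b UMI had intervals that overlapped across the libraries.

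In cone-like cells the catalytic subunit was lower in both rd10 libraries and the inhibitory subunit was not. Pde6c was measured at 1354 (1294 to 1416), 1133 (1092 to 1175) and 1127 (1083 to 1173) CPM in 278, 542 and 412 cone-like cells. The rd10 libraries overlapped with each other and lay clear of WT. The log2 ratios to WT were -0.26 (-0.34 to -0.17) for rd10-vehicle and -0.26 (-0.35 to -0.18) for rd10-TMB, and that between the rd10 libraries was -0.01 (-0.09 to 0.07). Pde6h was at 13965 (13771 to 14160.1), 14479 (14332 to 14627) and 14889 (14727 to 15052) CPM, with log2 ratios to WT of 0.05 (0.03 to 0.08) and 0.09 (0.07 to 0.12). The Pde6c to Pde6h ratio differed from WT by -0.31 (-0.40 to -0.22) in rd10-vehicle and -0.36 (-0.45 to -0.27) in rd10-TMB, and between the rd10 libraries by -0.05 (-0.13 to 0.03). Pde6g in the same cells had log2 ratios to WT of 0.00 (-0.05 to 0.06) and -0.08 (-0.14 to -0.02). Where WT was limited to cells with a female pattern of Xist and Y-linked genes (126 cone-like cells), the Pde6h ratios to WT were -0.04 and -0.0027, so its small excess did not hold there.

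None of Pde6c, Pde6h and Pde6g was called in cone-like cells, where 8.68% of all genes tested were called lower and 6.23% higher in rd10-vehicle against WT, 8.9% and 5.27% in rd10-TMB against WT, and 5.19% and 3.41% in rd10-TMB against rd10-vehicle. With Pde6c set against the sum of 8 cone markers in place of all UMIs, the log2 ratio to WT for rd10-vehicle came to 0.01 and that for rd10-TMB to -0.10, so its difference from WT did not hold on that scale in rd10-vehicle. The marker sum itself was 29016, 24095 and 25882 CPM. Arr3, the cone arrestin and part of that sum, was at 4757, 3714 and 5007 CPM. The Pde6c to Arr3 ratio differed from WT by 0.10 (0.01 to 0.20) in rd10-vehicle and -0.34 (-0.44 to -0.24) in rd10-TMB. Müller glia markers summed to 392, 872 and 827 CPM in cone-like cells, and the median mitochondrial share of these cells was 8.77%, 10.2% and 10.3%. The part of either in these values was not tested.

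In cells thinned to 1000 UMIs, Pde6c was found in 70.0% (64.1 to 75.3), 65.5% (61.3 to 69.6) and 65.5% (60.6 to 70.2) of cone-like cells, against 0.569%, 0.969% and 0.869% of Müller glia-like cells. Without thinning the cone-like shares were 98.2%, 97.4% and 96.4%. Pde6h was found in 98.2%, 98.9% and 98.99% after thinning and 98.6%, 99.1% and 98.5% before. Pde6g was found in 89.0%, 87.9% and 86.6% after thinning and 97.1%, 96.1% and 96.4% before. Median depth before thinning was 5333, 4857 and 5548.5 UMIs, and thinning left 273, 531 and 397 cone-like cells. Pde6g was found in 91.6% (86.8 to 95.1) of thinned WT cone-like cells with a Pde6c UMI and in 82.9% (73.0 to 90.3) of those without. The intervals of that pair overlapped in both rd10 libraries too, with 86.8% (82.8 to 90.2) and 90.2% (84.9 to 94.1) in rd10-vehicle.

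Mouse cones express a short-wave opsin (Opn1sw), a middle-wave opsin (Opn1mw) or both. Cone-like cells with at least 5 opsin UMIs were divided by the opsin with the larger count, a split chosen after the data were seen in which 28, 44 and 31 cells had an Opn1mw share between 40% and 60%. Pde6g differed between these groups in the rd10 libraries. In cells led by Opn1sw it was at 2531 (2426 to 2640.4), 2885 (2791 to 2982) and 2606 (2513 to 2702) CPM, and in cells led by Opn1mw at 2404 (2278 to 2535), 2139 (2061 to 2219.7) and 2087 (1998 to 2178) CPM. The log2 ratio of Opn1mw-led to Opn1sw-led cells was -0.07 (-0.17 to 0.02), -0.43 (-0.50 to -0.36) and -0.32 (-0.40 to -0.24). The interval included 0 in WT and lay below 0 in both rd10 libraries. For Pde6h the levels were 13583, 15408 and 16282 CPM in Opn1sw-led and 14603, 13746 and 13532 CPM in Opn1mw-led cells, with log2 ratios of 0.10 (0.06 to 0.15), -0.16 (-0.19 to -0.14) and -0.27 (-0.30 to -0.23), so the higher level was in Opn1mw-led cells in WT and in Opn1sw-led cells in both rd10 libraries. Pde6c had log2 ratios of -0.05 (-0.19 to 0.08), -0.22 (-0.33 to -0.11) and -0.08 (-0.19 to 0.04).

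Low counts of the rod catalytic subunits were also present in cone-like cells. Pde6a was at 75.8 (62.2 to 91.5), 116 (103 to 129.7) and 99.4 (86.6 to 114) CPM, from 108, 297 and 216 UMIs. Pde6b was at 47.0 (36.4 to 59.7), 36.3 (29.3 to 44.4) and 35.4 (28.0 to 44.3) CPM, from 67, 93 and 77 UMIs. Pde6a was the 1 member called in cone-like cells, higher in rd10-vehicle than in WT with a log2 ratio of 0.60 (0.29 to 0.94), while Pde6b had -0.38 (-0.84 to 0.10), an interval that includes 0. The Pde6a call lay close to the 1.5-fold limit and was lost as a mean over cells, at 0.55, without the 5% of cells with the most UMIs, at 0.57, and in cells thinned to 1000 UMIs, at 0.33. In the thinned cells the Pde6b ratios to WT were 0.04 in rd10-vehicle and 0.17 in rd10-TMB, of the opposite sign to those over all UMIs. The Pde6b to Pde6a ratio of cone-like cells lay below that of rod-like cells of the same library, with log2 differences of -0.53 (-0.999 to -0.07), -1.32 (-1.69 to -0.96) and -1.11 (-1.51 to -0.71). Between libraries, within cone-like cells, that ratio differed from WT by -0.99 (-1.56 to -0.40) in rd10-vehicle and -0.80 (-1.40 to -0.19) in rd10-TMB, and in thinned cells by -0.27 (-1.72 to 1.24) and -0.54 (-2.04 to 1.01).

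Müller glia-like cells had 44.6 (37.7 to 52.4), 57.1 (54.0 to 60.3) and 54.0 (50.5 to 57.6) CPM of Pde6a and 42.2 (35.5 to 49.8), 47.2 (44.4 to 50.1) and 46.9 (43.7 to 50.3) CPM of Pde6b. The Pde6a level of cone-like cells was above the Müller glia-like level in each library, and the intervals of the Pde6b levels overlapped. It was not above every class outside photoreceptors. Rod bipolar-like cells had 72.8 (61.3 to 85.7), 57.7 (48.9 to 67.7) and 66.3 (56.9 to 76.8) CPM of Pde6a, ON cone bipolar-like cells 116 (96.1 to 138), 41.97 (32.0 to 54.0) and 80.5 (65.8 to 97.4) CPM and cluster 7 103 (77.1 to 135), 101 (73.5 to 135) and 88.1 (60.6 to 124) CPM. In WT the cone-like level lay below that of ON cone bipolar-like cells, and its interval overlapped those of rod bipolar-like cells and cluster 7. In both rd10 libraries its interval overlapped that of cluster 7, and in rd10-TMB also that of ON cone bipolar-like cells. The part of RNA from rods in the cone-like counts was not settled by these values. In cells thinned to 1000 UMIs, 6.96%, 8.29% and 10.3% of cone-like cells had a Pde6a UMI, against 3.98%, 4.68% and 5.10% of Müller glia-like cells and 7.23%, 7.75% and 6.31% of rod bipolar-like cells, and without thinning 30.9%, 35.6% and 37.6%. For Pde6b the cone-like shares were 3.30%, 3.58% and 4.03%, at or below the Müller glia-like shares given above.

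Outside photoreceptors the rod subunits were counted at low levels in each class of at least 50 cells. In Müller glia-like cells the Pde6b to Pde6a ratio differed from that of rod-like cells by 0.08 (-0.27 to 0.43), 0.08 (-0.08 to 0.24) and 0.18 (0.02 to 0.34) on the log2 scale. The interval included 0 in WT and rd10-vehicle and lay above 0 in rd10-TMB. The Pde6g to Pde6a ratio was below the rod value in each library, with differences of -0.77 (-1.08 to -0.45), -0.37 (-0.50 to -0.24) and -0.18 (-0.31 to -0.05). In rod bipolar-like cells, the second-order neurons of rods, the Pde6b to Pde6a ratio differed from the rod value by -0.63 (-1.04 to -0.22), -0.30 (-0.70 to 0.09) and -0.15 (-0.50 to 0.20), and the Pde6g to Pde6a ratio by -1.64 (-2.01 to -1.28), -2.32 (-2.74 to -1.91) and -1.83 (-2.17 to -1.49). In ON cone bipolar-like cells these differences were -0.18 (-0.59 to 0.22), 0.63 (0.11 to 1.16) and 0.18 (-0.25 to 0.60) for Pde6b to Pde6a and -0.91 (-1.25 to -0.56), -0.08 (-0.53 to 0.38) and -0.63 (-0.99 to -0.26) for Pde6g to Pde6a. Pde6g was thus below its rod-like ratio to Pde6a in each of these classes, except that the interval included 0 in ON cone bipolar-like cells of rd10-vehicle. The counts behind these ratios are small, with 143, 151 and 179 Pde6a UMIs in rod bipolar-like cells, and the source of these transcripts was not tested.

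**Figure D5:**
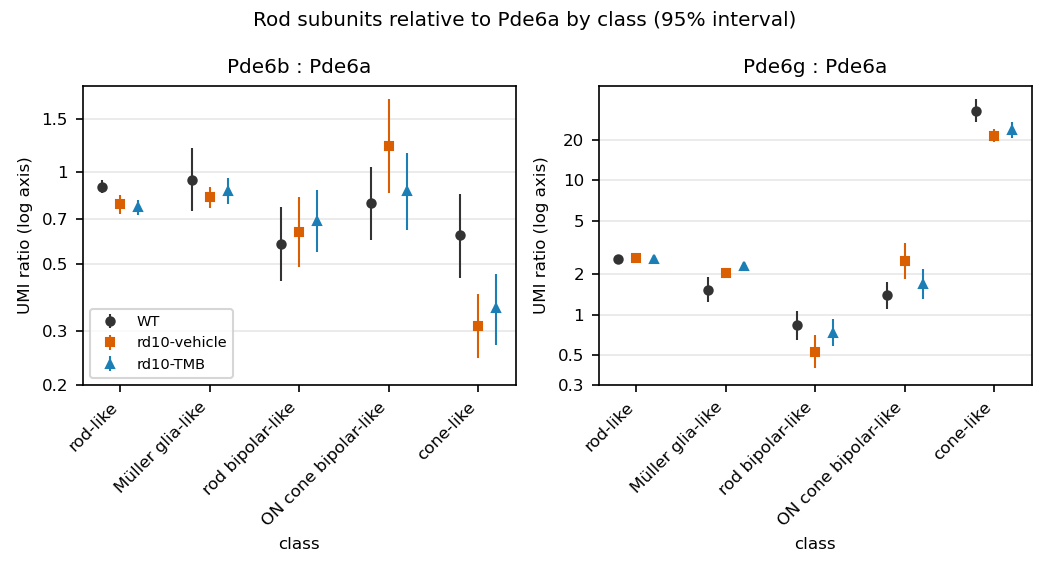
UMI ratio of Pde6b and of Pde6g to Pde6a on a log axis (vertical) by class (horizontal) for each library, with 95% intervals. The Pde6b ratio in cone-like cells differs from the rod-like value by -0.53, -1.32 and -1.11 on the log2 scale, and the Pde6g ratio in cone-like cells by 3.65, 3.02 and 3.18.

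In Müller glia-like cells a few cells held much of the cone signal. Pde6h was at 27.4 (22.1 to 33.7), 70.5 (67.1 to 74.1) and 87.6 (83.1 to 92.2) CPM there. The 1% of cells with the most Pde6h UMIs, taken after the data were seen, carried 27.5%, 47.6% and 52.3% of them, and single cells held up to 13, 123 and 88 UMIs. Without those cells the level was 20.3 (15.7 to 25.8), 38.0 (35.5 to 40.7) and 42.8 (39.7 to 46.1) CPM, with both rd10 libraries still above WT. For Pde6g the top 1% of cells carried 14.2%, 21.5% and 21.2%, and the level without them was 59.8 (51.7 to 68.8), 94.5 (90.4 to 98.7) and 99.98 (95.2 to 105) CPM.

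The rest of the phototransduction pathway was read from gene lists, with the calls defined above. Of 46 genes in 6 lists, 36, 37 and 33 had enough UMIs in rod-like cells for rd10-vehicle over WT, rd10-TMB over WT and rd10-TMB over rd10-vehicle, and 7, 7 and 2 were called in either direction. That is 19.4%, 18.9% and 6.06%, beside 20.4%, 17.9% and 13.8% over all genes tested. In cone-like cells 11 of 39, 8 of 39 and 2 of 38 were called, or 28.2%, 20.5% and 5.26%, beside 14.9%, 14.2% and 8.60% over all genes tested. Against WT the rod-like shares were thus near those of all genes. The cone-like calls in rd10-vehicle against WT included the rod genes Gnat1, Gnb1, Slc24a1 and Guca1b, with values given below. Of 9 rod cascade genes, which include those of rod transducin, the cyclic GMP-gated channel and arrestin, none was called in rod-like cells in any of the 3 comparisons. Their median log2 ratio was -0.13 for rd10-vehicle and -0.10 for rd10-TMB over WT, beside medians of -0.05 and -0.07 over all genes tested. In rd10-vehicle the values ran from -0.36 for Cngb1, a channel subunit, to 0.26 for Rcvrn, which encodes the calcium sensor recoverin. Gngt1, the gamma subunit of rod transducin, was at 7308, 8021 and 10114 CPM, with log2 ratios to WT of 0.13 and 0.47.

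Of 8 cone cascade genes, 6 had enough UMIs in rod-like cells, and Gnb3, the transducin beta subunit of cones and of ON bipolar cells, was called higher in both rd10 libraries. Gnb3 was at 82.3, 683 and 325 CPM. Its log2 ratio over WT was 3.05 (2.79 to 3.32) for rd10-vehicle and 1.98 (1.71 to 2.26) for rd10-TMB, and that of rd10-TMB over rd10-vehicle was -1.07 (-1.26 to -0.89). Gnb1, its rod counterpart, was at 3795, 3046 and 3288 CPM in the same cells and was not called. In rod-like cells the 8 cone markers summed to 244, 281 and 214 CPM, the 8 rod bipolar markers to 365, 324 and 411 CPM and the 7 ON cone bipolar markers to 170.2, 151 and 162 CPM. The part of RNA from other cells in the Gnb3 values was not tested. Arr3 was at 64.0, 79.0 and 58.6 CPM and Gnat2, the alpha subunit of cone transducin, at 23.4, 25.6 and 26.9 CPM. Opn1mw was called lower in rd10-TMB against rd10-vehicle on 35 and 36 UMIs, with an interval that includes 0.

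Cyclic GMP is made by guanylate cyclases, which calcium-binding activators switch on. Of 6 genes of this list, the soluble cyclase subunits Gucy1a1 and Gucy1b1 were called lower in rod-like cells of both rd10 libraries against WT, and none was called higher. Gucy1a1 had 62, 14 and 18 UMIs and Gucy1b1 had 36, 3 and 10 UMIs. At 34.5, 16.3 and 14.2 CPM for Gucy1a1 and 20.02, 3.49 and 7.91 CPM for Gucy1b1, both were lower in the libraries in which the summed amacrine markers of rod-like cells were lower too, at 185, 34.9 and 35.6 CPM. The part of RNA from other cells in these values was not tested. The photoreceptor cyclase Gucy2e was at 309, 259 and 274 CPM in rod-like cells and was not called. In cone-like cells Guca1b, Gucy2f and Gucy1b1 were called lower in both rd10 libraries against WT. Guca1b, which encodes a cyclase activator, was at 132, 35.1 and 32.2 CPM there, with log2 ratios to WT of -1.90 (-2.29 to -1.54) and -2.02 (-2.45 to -1.63). In rod-like cells Guca1b was at 1913, 1747 and 1717 CPM, and its paralogue Guca1a was at 6464, 5507 and 5998 CPM in cone-like cells. Rod-like cells made up 26.4%, 9.34% and 15.5% of the libraries. How far RNA from rods entered the cone-like Guca1b and Gucy2f values was not tested. In cone-like cells Gucy2f and Gucy1b1 had at most 15 UMIs in a library, and the intervals of the Gucy1b1 ratios, and of the Gucy2f ratio in rd10-TMB, included 0.

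The shut-off complex of Rgs9, Rgs9bp and Gnb5 returns transducin, and with it PDE6, to rest. In rod-like cells Rgs9bp, which anchors the complex, was at 506, 319.5 and 408 CPM. It was called lower in rd10-vehicle against WT, with a log2 ratio of -0.66 (-0.86 to -0.47), and was not called in rd10-TMB, at -0.31 (-0.47 to -0.15). Rgs9 was at 599.5, 576 and 703 CPM. In cone-like cells Rgs9bp was at 279, 190.2 and 177 CPM and was called lower in rd10-TMB, at -0.66 (-0.86 to -0.45). All 3 genes had ratios below 0 against WT in cone-like cells of both rd10 libraries, with medians of -0.37 and -0.27 beside -0.06 and -0.05 over all genes tested.

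PDE6 needs the chaperone encoded by Aipl1 to fold, lipid groups on its catalytic subunits, and carriers that move it to the outer segment. Aipl1 was at 1158, 1111 and 1021 CPM in rod-like cells, with log2 ratios to WT of -0.06 (-0.17 to 0.05) and -0.18 (-0.28 to -0.08), and at 1408, 1508 and 1413 CPM in cone-like cells. Pde6d, whose product carries prenylated proteins, was at 209, 201 and 209 CPM in rod-like and 448, 373 and 369 CPM in cone-like cells. Neither was called. Of the 10 genes of this list, Rp2, linked to ciliary transport, was called lower in rod-like cells of rd10-vehicle on 2 against 18 UMIs, and Rpgr, which acts at the connecting cilium, was called lower in rd10-TMB, at 143, 117 and 90.2 CPM. In cone-like cells Rp2 and the farnesyltransferase subunit Fntb were called lower in rd10-vehicle with intervals that include 0, and Rpgr in rd10-TMB, at 86.3, 66.3 and 54.8 CPM.

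Of 10 other phosphodiesterase genes whose enzymes can act on cyclic GMP, 2 or 3 had enough UMIs in a comparison with WT. Pde10a, a dual-substrate enzyme, was called higher in both photoreceptor classes of both rd10 libraries. In rod-like cells it was at 12.8, 72.0 and 80.7 CPM, from 23, 62 and 102 UMIs, with log2 ratios to WT of 2.46 (1.78 to 3.25) and 2.61 (1.99 to 3.38). In cone-like cells it was at 47.0, 94.7 and 104 CPM, with log2 ratios of 0.995 (0.61 to 1.42) and 1.13 (0.75 to 1.56). The 8 Müller glia markers were higher in the same libraries, summing to 311, 859.8 and 725 CPM in rod-like and 392, 872 and 827 CPM in cone-like cells, and the part of RNA from other cells in the Pde10a and Pde3a values was not tested. Pde3a was called lower in rod-like cells of both rd10 libraries on 28, 1 and 2 UMIs and in cone-like cells of rd10-vehicle on 16 against 21 UMIs. Pde1c was called lower in rod-like cells of rd10-TMB on 4 against 17 UMIs, with an interval that includes 0. Between the rd10 libraries, Rp2 and Pde3a were called higher in cone-like cells of rd10-TMB on at most 22 UMIs, again with intervals that include 0.

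In cone-like cells 3 of the 9 rod cascade genes, Gnat1, Gnb1 and the exchanger gene Slc24a1, were called lower in rd10-vehicle against WT, and Gnb1 and Slc24a1 were called lower in rd10-TMB too. Gnb1 was at 109, 50.3 and 60.3 CPM and Gnat1 at 106, 68.6 and 83.3 CPM. In rod-like cells Gnb1 was at 3795, 3046 and 3288 CPM and Gnat1 at 4375, 4521 and 4328 CPM. Rod-like cells made up 26.4%, 9.34% and 15.5% of the libraries. How far RNA from rods entered these cone-like values was not tested. The arrestin gene Sag, at 5072, 4649 and 4939.6 CPM in cone-like cells, was not called. Of the 8 cone cascade genes, the channel subunit Cnga3 was called lower in rd10-vehicle, at 112, 71.3 and 97.1 CPM, and none was called in rd10-TMB against WT. The median log2 ratio of the cone cascade was -0.29 for rd10-vehicle and -0.20 for rd10-TMB, beside -0.26 and -0.26 for Pde6c.

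The genes whose level over 35 units of class and library, from 14 clusters, was most like that of each member were mainly photoreceptor genes. Likeness was the Pearson correlation of log2(CPM + 10), a description in which the units of a library share its depth and free RNA. Among the closest to Pde6a were Gnat1 (0.96), Samd11, Guca1b and Pcmtd2. The closest to Pde6b was Nrl (0.98), followed by Guca1b, Gnat1, Pde6a and Cnga1. Pde6g was closest to Sag (0.99), and also close to Pdc, Rcvrn and Grk1. Pde6c was closest to Agr2 (0.98), then Pde6h, Tc2n, 4930458D05Rik and Cnga3, and Pde6h to Opn1mw (0.99), then Opn1sw, Pde6c, Arr3 and Cckbr. Among the members the correlation was 0.95 for Pde6a with Pde6b and 0.98 for Pde6c with Pde6h. Pde6g lay between, with 0.84 and 0.75 to Pde6a and Pde6b and 0.60 and 0.65 to Pde6c and Pde6h.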

How the data were processed

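Each library was made with 10x v3 chemistry, which counts tags from the 3′ ends of transcripts, so levels of different genes are not ranked against each other. Per the labels and methods, the authors aligned reads to mm10 with Cell Ranger 6.0.1, combined matrices with Cumulus 1.5.0, removed doublets with Scrublet 0.2.1, kept cells with at least 500 genes and clustered them in Seurat 3.2.2 on 19 components corrected with Harmony 0.1.0. The values the authors deposited are on a natural log scale, as ln(1 + UMIs per 10000 UMIs of the cell), beside a table of the UMI count, cluster and library name of each cell. All 32620606 entries came back as whole UMIs within 0.001, and the recovered sum equalled the authors' total for each of 15242 cells. No cell was removed and no doublet caller was run.

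UMIs were summed per cluster and library. Counts carry exact Poisson intervals, shares Clopper-Pearson intervals, and ratios (pseudocount 1 UMI) and differences of gene-pair ratios exact conditional intervals, all at 95% and for counting error only. A cluster was named when 3 or more of its markers had at least 20 CPM and 2-fold the level of the remaining cells. Where several lists passed, the name came from the list with the most markers among the 10 genes leading the cluster, or else the most markers in all, and clusters 6 and 10, with amacrine and bipolar markers but none among their leading 10, were left unnamed, a choice made after these values were seen. Members, gene lists and the rule for named genes were chosen with earlier results of these data known. That rule took the members, Arr3, Aipl1, list genes past 1.5-fold and the 5 genes most like each member. Genes such as Gngt1, Cngb1, Gnat2, Gucy2e, Guca1a, Rgs9 and Pde6d fell outside it and were chosen after their values were seen. Scripts were tested on simulated counts. Python 3.11.15, numpy 2.4.6, scipy 1.17.1, pandas 2.3.3 and matplotlib 3.10.9 were used. Alternatives covered scaling, pseudocount, cell filters, thinning, WT cells with a female pattern (Xist detected, Y-linked genes not) and a background subtraction. Results that rest on certain genes are not reported here, among them 1 selection of cone-like cells, made after the data were seen, in which the Pde6a difference between rd10-vehicle and WT was no longer past the fold limit.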

Additional observations from a re-analysis of the deposited data

How the results depend on the processing

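Of 420 alternative values, 323 were close to the reported value (ratios and shares within its counting interval, counts within 1.5 times), 82 moved further and 15 changed the sign of a value whose interval left out 0. The alternatives for Pde6a and Pde6b in cone-like cells and for ratios of 2 rod subunits were chosen after the data were seen. No paired analysis was possible because each group had 1 library. The Pde6b log2 ratio in rod-like cells kept its sign against WT, at -0.27 to -0.21 in rd10-vehicle and -0.20 to -0.08 in rd10-TMB. The causes of the changes below were not tested.

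With only cells of at least 1000 genes (289, 123 and 205 rod-like cells), Pde6g in rod-like cells was -0.30 and -0.13 over WT (rd10-vehicle, then rd10-TMB), Pde6g to Pde6b -0.045 and -0.051, the 3 rod subunits summed were -0.22 and -0.064 over WT and 0.16 between the rd10 libraries, against -0.069, 0.045 and 0.11 as reported, and the Pde6b share of the pair in rd10-vehicle was 41.9%. With WT limited to cells of a female pattern (Xist detected, Y-linked genes not), the rod sum was -0.022 and 0.091 over WT, Pde6h in cone-like cells -0.043 and -0.0027, and the cone subunits summed -0.058 and -0.021, so the small Pde6h excess over WT did not hold among these cells. The cone sum with no such limit was 0.027 and 0.064 over WT and 0.037 between the rd10 libraries. Scaled to the class markers, the rod sum was -0.018 in rd10-TMB over WT and 0.019 between the rd10 libraries, Pde6c 0.011 in rd10-vehicle over WT, Pde6h -0.063 between the rd10 libraries, Pde6g in cone-like cells 0.085 in rd10-TMB over WT, and the cone sum 0.30, 0.23 and -0.066. Thinned to 1000 UMIs, the rod sum was 0.064 between the rd10 libraries and Pde6g in cone-like cells 0.0037 in rd10-TMB over WT, and Pde6b in cone-like cells was 0.04 and 0.17 over WT.

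The cone sum in rd10-vehicle over WT was 0.089 with median-of-ratios size factors, 0.058 without mitochondrial and ribosomal protein genes, 0.054 as a mean over cells and 0.0029 at a mitochondrial share of 10% or less. In rd10-TMB over WT it was 0.11 with the size factors, 0.10 without those genes and 0.014 at the mitochondrial limit, and between the rd10 libraries -0.0017 as a mean over cells and 0.011 at the limit.

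Of the 36, 37 and 33 pathway genes with enough UMIs, 7, 7 and 2 were called in rod-like cells (rd10-vehicle over WT, rd10-TMB over WT, rd10-TMB over rd10-vehicle) and 11, 8 and 2 of 39, 39 and 38 in cone-like cells. Where both libraries together had to hold 100 UMIs, 2, 3 and 1 were called in rod-like cells, and 6 and 0 in cone-like cells for rd10-vehicle over WT and for rd10-TMB over rd10-vehicle. At a 2-fold limit the last rod-like count was 1 and the cone-like counts 5, 4 and 0. Thinned to 700 UMIs, the shares of rod-like cells were 76.5%, 70.5% and 75.6% for Pde6a, 68.9%, 62.9% and 64.2% for Pde6b and 88.0%, 90.1% and 90.8% for Pde6g, and those of cone-like cells 55.6% and 56.1% for Pde6c in the rd10 libraries and 79.1%, 77.1% and 76.6% for Pde6g. Subtracting the Müller glia-like level gave no value for Pde6b in cone-like cells against WT, because the rd10 level there was at or below it. Depth limits the cone genes in rod-like cells and the rod catalytic genes in cone-like cells, which rest on at most 297 UMIs a library.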
